A study of Mus musculus with 8 samples.

Results

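The genes described here encode proteins of the myeloid granule and lysosome and transcription factors of the myeloid lineage. They were chosen by name as 10 genes: Prtn3, Mpo, Elane and Lyz2 (granule and lysosomal enzymes), Ctss and Cd68 (lysosomal proteins), and Irf8, Gfi1, Cebpb and Sfpi1 (transcription factors). Of these 10 genes, 8 had a row among the 10720 genes of the table, with Sfpi1 listed under its current symbol Spi1. Mpo and Elane were not analysed here.

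Single hematopoietic stem cells (HSCs) were sorted from adult C57BL/6 mouse bone marrow as LSK CD150+CD34-CD48- cells, picked by hand and sequenced with unique molecular identifiers (UMIs), tags that count each captured mRNA molecule once. The control mice, labelled wild type (WT), were Mx1-cre- Med23 L/L littermates, so both groups carried the floxed Med23 allele. The knockout mice (KO) were Mx1-cre+ Med23 L/L and received poly(I:C) by 4 intraperitoneal injections at 2-day intervals, and whether the control animals of this experiment also received poly(I:C) is not given in the sources used here. The interferon-responsive Mx1 promoter drives Cre in many cell types, so deletion is not limited to HSCs. The labels give 4 libraries of each genotype, but the cells are named by genotype alone, so each label is 1 pool with no replicate and no test was possible.

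Neutrophil and monocyte precursors pack proteases and lysozyme into primary (azurophil) granules, which kill and digest ingested microbes. Synthesis of the granule proteins is highest in promyelocytes, well after the stem cell stage. PU.1, the product of Spi1, is an ETS-family factor required for myeloid and lymphoid development, C/EBP factors drive granulocyte genes, and IRF8 favours the monocyte and dendritic fates while Gfi1 favours granulocytes.

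The upstream sequences of the 2 members with the largest differences, Prtn3 and Irf8, and of Lyz2, whose pooled level differed little, are shown because they carry binding words of factors in or upstream of this gene group. The sequences are the 250 bases before the RefSeq transcription start in build GRCm38.p6, read 5′ to 3′ on the gene's own strand. Capitals mark matches, on either strand, to AGGAAG (reverse complement CTTCCT), a core word of PU.1 sites, or to TTCNNNGAA, the GAS word bound by STAT factors. The Prtn3 window is chr10:79879417-79879666 (plus strand), the Irf8 window, at the first of its annotated starts, is chr8:120736108-120736357 (plus strand), and the Lyz2 window is chr10:117282273-117282522 (minus strand).
Prtn3: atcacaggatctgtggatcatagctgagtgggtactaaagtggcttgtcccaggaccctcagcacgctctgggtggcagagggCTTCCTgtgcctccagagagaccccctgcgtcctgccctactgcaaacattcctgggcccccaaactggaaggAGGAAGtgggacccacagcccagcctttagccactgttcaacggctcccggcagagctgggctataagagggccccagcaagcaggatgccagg
Irf8: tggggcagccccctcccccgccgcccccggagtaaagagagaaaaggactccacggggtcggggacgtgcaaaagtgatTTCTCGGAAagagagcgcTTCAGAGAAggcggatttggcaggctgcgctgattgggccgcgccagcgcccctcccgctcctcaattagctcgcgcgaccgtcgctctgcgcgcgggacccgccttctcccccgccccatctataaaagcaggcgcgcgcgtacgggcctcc
Lyz2: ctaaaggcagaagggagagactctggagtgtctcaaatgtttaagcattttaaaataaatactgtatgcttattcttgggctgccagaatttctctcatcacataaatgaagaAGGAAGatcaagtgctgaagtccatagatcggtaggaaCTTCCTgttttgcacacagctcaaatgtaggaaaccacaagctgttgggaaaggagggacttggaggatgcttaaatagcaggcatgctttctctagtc

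The Prtn3 window held 2 PU.1 words, whose first bases lay 167 and 94 bases upstream of the start, and the Lyz2 window also held 2, at 137 and 99 bases. The Irf8 window held 2 GAS words, TTCTCGGAA at 171 bases and TTCAGAGAA at 153 bases, and no PU.1 word. A PU.1 word occurred in 29.5% of the 32851 promoter windows of this length in the RefSeq table, a GAS word in 7.02%, and a C/EBP word (TTGCNNAA) in 9.56%. Entries were found for 7 of the 8 members with a row, in 9 windows, of which 3 held a PU.1 word, 2 a C/EBP word (Cd68 and Gfi1) and 1 a GAS word. These matches describe the letters only. Prtn3 lies next to Elane, and Lyz2 next to its paralog Lyz1, both on chromosome 10.

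The values behind the comparison are the 493 cells with at least 2000 genes and 20000 UMIs, 259 labelled WT (45 left out) and 234 labelled KO (48 left out). The kept cells held 21475782 UMIs in the WT-labelled pool and 16180546 in the KO-labelled pool, with a median per cell of 59649 and 50281. Med23 itself gave 122 and 117 UMIs, or 5.68 and 7.23 CPM (UMIs scaled to a pool total of 1000000). The log2 ratio was 0.35 (95% counting interval -0.03 to 0.73), an interval that includes no difference. A single KO-labelled cell held 28 of the 117 UMIs (23.9%). When each cell was thinned at random to 20000 UMIs, Med23 had a UMI in 8.49% of WT-labelled and 5.98% of KO-labelled cells. The difference was -2.51 percentage points (-7.39 to 2.43). The unthinned Med23 shares were 18.1% and 11.5%, a difference of -6.61 percentage points (-13.1 to -0.03), an interval below 0. These unthinned shares are not at equal depth, as WT-labelled cells had the higher median of UMIs. A lower level of the targeted transcript in the KO-labelled pool was thus not shown in CPM or at equal depth. Cells are called by their label throughout. Whether the 3′ reads that were counted lie outside the deleted exons is not given in the sources used here, so this check may not see the deletion. Transcripts of oocyte genes exceeded 1000 CPM in 63 cells (24.3%) labelled WT and in 1 (0.427%) labelled KO. Columns carry cell numbers instead of barcodes, so shared barcodes could not be counted, but no column was identical to another. Transcripts of the sorting markers were present. Without thinning, Kit had a UMI in 86.5% of WT-labelled and 72.6% of KO-labelled cells, and Ly6a (Sca-1) in 87.3% and 70.5%. After thinning to 20000 UMIs the shares were 71.4% and 59.8% for Kit and 70.3% and 54.3% for Ly6a. Slamf1 (CD150) had a UMI in 35.9% and 8.12% of cells without thinning and in 23.9% and 5.13% after it. Its level was 39.0 CPM in the WT-labelled pool and 8.16 CPM in the KO-labelled pool. Cd34, whose protein the sort selected against, had a UMI in 83.0% and 92.7% of cells without thinning and in 71.0% and 86.8% after it. The level of Cd34 was 178.2 and 303.7 CPM, a log2 ratio of 0.77 (0.71 to 0.83), higher in the same pool as Prtn3, Irf8, Cd68 and Spi1. The part of this difference in the values of the members was not tested.

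The question was how far stem cells of each label carried transcripts of the granulocyte and macrophage program. Of the 8 members, 6 were higher and 2 lower in the KO-labelled pool. The level of Prtn3 was 3.24-fold higher and that of Irf8 2.78-fold higher. Spi1 and Cd68 were higher by less than 2-fold, Lyz2 differed little, and Ctss was lower. Gfi1 and Cebpb were too sparse for a direction. With 1 pool per label, 95% intervals are exact and cover counting error only, not the spread between animals or libraries.

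With a log2 ratio of at least 1 as the call, 2 of the 8 members (25%) were called higher, against 6.98% of all 10720 genes, and 0 were called lower, against 7.94% of all genes. The median log2 ratio over the 8 members was 0.55, and over all genes it was 0.02, with 51.9% of genes higher and the 5th to 95th percentile spanning -1.45 to 1.18. Prtn3 stood at the 98.1 percentile of all genes and Irf8 at the 97.2 percentile. No test stands behind these counts, since there is no replicate. The members, and the gene lists below, were chosen with earlier results of these data known, so the contrast with all genes is a description only.

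**Figure D1:**
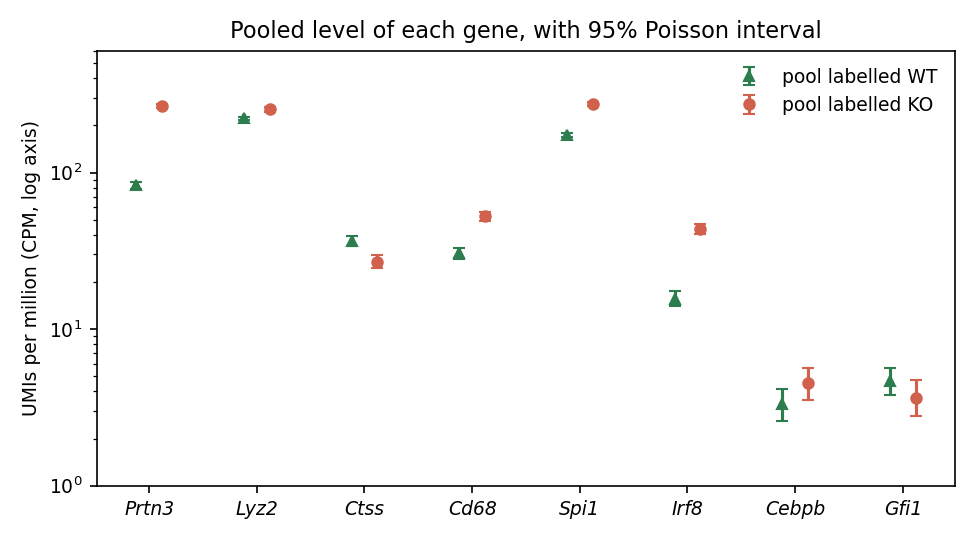
Pooled level of each of the 8 genes in CPM (logarithmic axis) in WT-labelled cells (green triangles) and KO (coral circles), with exact 95% Poisson intervals for counting error. Prtn3, Irf8, Cd68 and Spi1 sit higher in the KO-labelled pool with intervals well apart, Ctss sits lower, and the intervals of Cebpb and Gfi1 overlap.

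Prtn3 encodes proteinase 3, a serine protease of primary granules. It gave 1777 UMIs in the WT-labelled pool and 4334 in the KO-labelled pool, or 82.7 CPM (78.9 to 86.7) and 267.9 CPM (259.9 to 275.9). The log2 ratio of these levels was 1.69 (1.61 to 1.78). Among single WT-labelled cells the Prtn3 level ran from 0 CPM over a median of 0 to 1698 CPM, and among those labelled KO from 0 over a median of 156 to 2023 CPM. Cells of the 2 labels thus overlapped over most of their range.

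The difference in Prtn3 lay in both the number of cells with a transcript and the number of transcripts per cell. When every cell was thinned at random to 20000 UMIs, a UMI of Prtn3 was found in 88 of 259 WT-labelled cells (34.0%, exact interval 28.2 to 40.1) and in 156 of 234 labelled KO (66.7%, 60.2 to 72.7). Without thinning the shares were 45.9% and 75.6%. Among cells with the transcript, the median was 3 UMIs of Prtn3 in WT-labelled cells and 6 in KO-labelled cells at equal depth. At least 10 UMIs were found in 13 cells (5.02%) labelled WT and 53 cells (22.6%) labelled KO. The signal was more concentrated in the WT-labelled pool: the 26 cells with the most Prtn3, 10% of the cells, held 67.9% of its thinned UMIs, and the corresponding 24 KO-labelled cells held 41.5%. Beside these shares, Zp3, an egg-coat gene that blood cells do not use, had a UMI at equal depth in 44.8% of WT-labelled cells and 8.12% of KO-labelled cells. The WT share of Prtn3 was below that of Zp3 at this cutoff, so this gauge does not tell it from background. The order depended on the cutoff: at 2 or more UMIs the WT shares were 26.3% for Prtn3 and 25.1% for Zp3. Zp3 gauges oocyte RNA and does not measure stray transcripts of blood genes. The KO share was above that of Zp3. Oocyte transcripts lay mostly in WT-labelled cells, so the gauge sets a higher bar for that label. Without the cells rich in oocyte transcripts, Zp3 was found in 33.7% and 8.15% of cells and Prtn3 in 33.2% and 66.5%.

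Prtn3 was past 2-fold higher in shallow and in deep cells, by somewhat more in the deep ones. In cells under 50000 UMIs (108 labelled WT, 116 labelled KO) its log2 ratio was 1.47 (1.30 to 1.64), and in cells of 50000 UMIs or more (151 and 118) it was 1.73 (1.64 to 1.83). It was 1.66 without cells rich in oocyte transcripts and 1.77 without the cell with the most Prtn3 in each label. With every cell weighted equally, the labels differed by 0.84 in the mean over cells of log2(CPM/100 + 1), a scale that shrinks low values and is not a log2 ratio of pooled levels.

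Lyz2 encodes the lysozyme of granulocytes and macrophages, an enzyme that cleaves bacterial cell walls. It gave 4761 and 4094 UMIs, or 221.7 CPM in the WT-labelled pool and 253 CPM in the KO-labelled pool, a log2 ratio of 0.19 (0.13 to 0.25). Its direction was not stable: the log2 ratio was -0.29 (-0.41 to -0.17) in cells under 50000 UMIs and 0.31 (0.24 to 0.38) in deeper cells, -0.067 after thinning and 0.03 (-0.03 to 0.09) without cells rich in oocyte transcripts. Lyz2 had a UMI at equal depth in 84.6% of WT-labelled cells and 88.0% of KO-labelled cells, both above the share of Zp3, and the difference of 3.48 percentage points had an interval of -2.93 to 9.79. Single cells spanned 0 to 1781 CPM with a median of 203.9 CPM among those labelled WT, and 0 to 1472 CPM with a median of 228.6 CPM among those labelled KO. A transcript of this mature myeloid enzyme was therefore counted in most cells of both labels.

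Lyz1, the neighbouring paralog, is near-identical to Lyz2 in parts: 15.4% of the 50-base words of the Lyz2 transcript (GENCODE M21) are also in the Lyz1 transcript, and 16.9% of those in its last 500 bases. Reads from the shared parts can be assigned to either gene, so the split between them is uncertain. Lyz1 gave 1936 and 1780 UMIs, a log2 ratio of 0.29 (0.19 to 0.38). The ratio of Lyz2 to Lyz1 UMIs was 2.46 (2.33 to 2.59) in the WT-labelled pool and 2.30 (2.17 to 2.43) in the KO-labelled pool, and both genes were found together in 229 (88.4%) and 207 (88.5%) of the unthinned cells. The summed UMIs of Prtn3 and Lyz2 were 6538 and 8428, a log2 ratio of 0.77 (0.73 to 0.82). In unscaled UMIs, Prtn3 had 2557 more in the KO-labelled pool and Lyz2 had fewer. That pool held fewer UMIs in total (16180546 against 21475782 in the WT-labelled pool). Scaled to the pool total, Lyz2 was slightly higher in the KO-labelled pool (253 against 221.7 CPM).

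**Figure D2:**
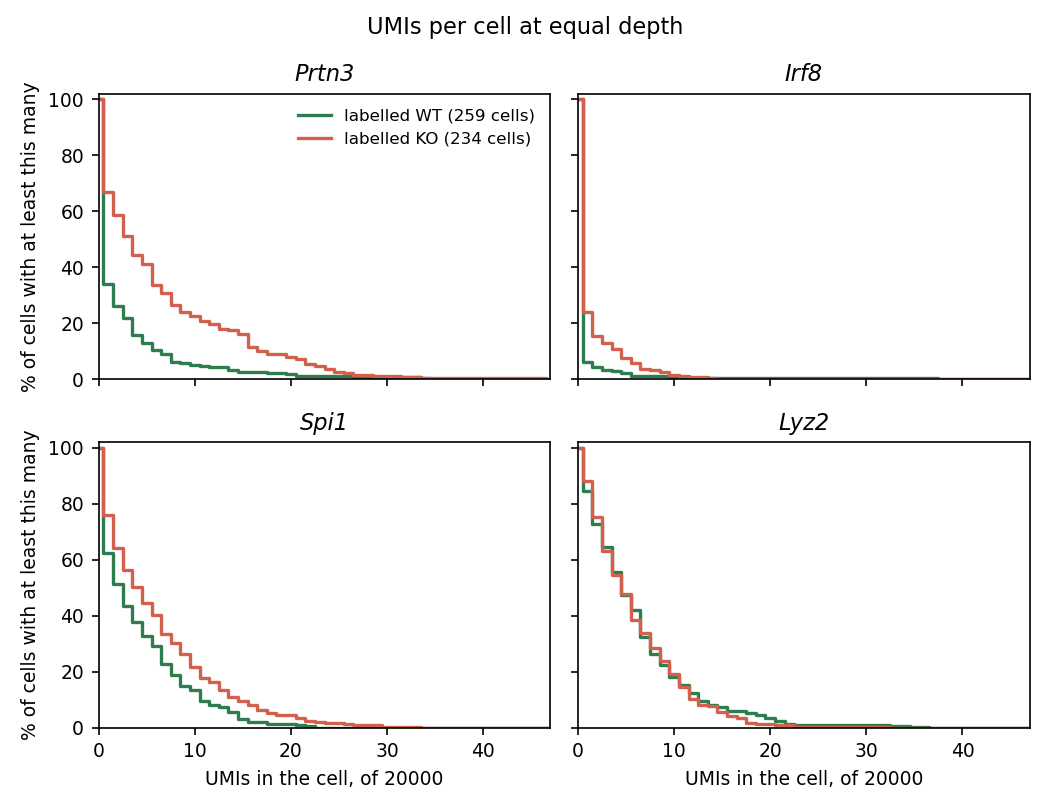
Share of cells (%) with at least a given number of UMIs of Prtn3, Irf8, Spi1 and Lyz2, after each cell was thinned to 20000 UMIs, for 259 WT-labelled cells (green) and 234 labelled KO (coral). The curves of Prtn3 are apart up to about 20 UMIs, those of Irf8 and Spi1 are apart at low UMI numbers, and those of Lyz2 nearly coincide.

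Cd68, a heavily glycosylated lysosomal membrane protein of macrophages, gave 656 and 852 UMIs, or 30.5 CPM in the WT-labelled pool and 52.7 CPM in the KO-labelled pool, a log2 ratio of 0.79 (0.64 to 0.93). It had a UMI at equal depth in 13.5% of WT-labelled cells and 26.1% of KO-labelled cells. The WT share is below that of Zp3, so that gauge does not tell it from background. In cells under 50000 UMIs the log2 ratio of Cd68 was 1.37 (0.996 to 1.77), past 2-fold, and after thinning it was 1.26. In cells of 50000 UMIs or more it was 0.67 (0.51 to 0.84). Without cells rich in oocyte transcripts it was 0.60 (0.45 to 0.76). A few deep cells held much of the WT signal, with 119 of the 656 UMIs (18.1%) in 1 cell.

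Ctss encodes cathepsin S, the protease that trims the invariant chain of MHC class II in antigen-presenting cells. It was lower in the KO-labelled pool, with 786 and 435 UMIs, or 36.6 and 26.9 CPM and a log2 ratio of -0.45 (-0.62 to -0.27). The difference was seen in the deeper cells: the log2 ratio was -0.61 (-0.82 to -0.41) at 50000 UMIs or more and -0.05 (-0.40 to 0.30) below that depth. Without cells rich in oocyte transcripts it was -0.62 (-0.80 to -0.44). Ctss had a UMI at equal depth in 22.4% of WT-labelled cells and 17.9% of KO-labelled cells, a difference of -4.45 percentage points (-11.7 to 2.96). The WT share is below that of Zp3 (44.8%) and the KO share above it (8.12%). That unequal gauge does not tell the WT share from background, though it is the higher share of Ctss. Without thinning, 27 WT-labelled and 15 KO-labelled cells held at least 10 UMIs of Ctss. Together the 2 lysosomal members had a log2 ratio of 0.24 (0.13 to 0.35), the sum of opposite directions, and 0.067 without cells rich in oocyte transcripts.

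Irf8, an interferon regulatory factor of monocyte and dendritic cell precursors, gave 336 and 705 UMIs, or 15.6 CPM (14.0 to 17.4) in the WT-labelled pool and 43.6 CPM (40.4 to 46.9) in the KO-labelled pool. The log2 ratio was 1.48 (1.29 to 1.67). A single WT-labelled cell held 153 of the 336 UMIs (45.5%), and the top KO-labelled cell held 94 of 705 (13.3%). Without these 2 cells 183 and 611 UMIs remained, a log2 ratio of 2.17 (1.93 to 2.42). In cells under 50000 UMIs it was 0.86 (0.43 to 1.29), under 2-fold, and in deeper cells 1.63 (1.42 to 1.85). The difference in the mean over cells of log2(CPM/100 + 1) was 0.21.

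At equal depth Irf8 had a UMI in 16 cells (6.18%, 3.57 to 9.84) labelled WT and 56 cells (23.9%, 18.6 to 29.9) labelled KO. The WT share is below that of Zp3, so that gauge does not tell it from background. Without thinning the shares of Irf8 were 8.88% and 30.8%. The cells with the transcript held a median of 3.5 UMIs in those labelled WT and 3 in those labelled KO, against a wider gap in the number of cells with the transcript. Cells with none were the majority in both.

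Spi1 was the transcription factor of the list found in most cells. It gave 3733 and 4435 UMIs, or 173.8 CPM (168.3 to 179.5) in the WT-labelled pool and 274.1 CPM (266.1 to 282.3) in the KO-labelled pool, a log2 ratio of 0.66 (0.59 to 0.72), which is 1.58-fold. Single WT-labelled cells ran from 0 over a median of 105.8 to 1021 CPM, and those labelled KO from 0 over a median of 195.6 to 1433 CPM. Spi1 had a UMI at equal depth in 62.5% of WT-labelled cells and 76.1% of KO-labelled cells, both above Zp3, a difference of 13.5 percentage points (5.10 to 21.7). The log2 ratio of Spi1 was 0.46 in cells under 50000 UMIs and 0.69 in deeper cells, and lay between 0.46 and 0.73 over the 11 alternatives that give a log2 ratio of levels. The difference in the mean over cells of log2(CPM/100 + 1) was 0.37.

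Gfi1, a zinc-finger transcriptional repressor that promotes the granulocyte fate, gave 100 and 59 UMIs, a log2 ratio of -0.35 (-0.84 to 0.13). Cebpb, the C/EBP factor of emergency granulopoiesis, gave 71 and 73 UMIs, a log2 ratio of 0.45 (-0.04 to 0.94). Both intervals include no difference, but without cells rich in oocyte transcripts the log2 ratio of Cebpb was 0.55 (0.012 to 1.10), an interval above 0. Their shares at equal depth were 5.79% and 4.27% for Gfi1 and 3.09% and 5.98% for Cebpb. All were below Zp3 in the same label, so that gauge does not tell them from background. The 4 transcription factors together had a log2 ratio of 0.72 (0.66 to 0.78), of which most UMIs are those of Spi1.

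**Figure D3:**
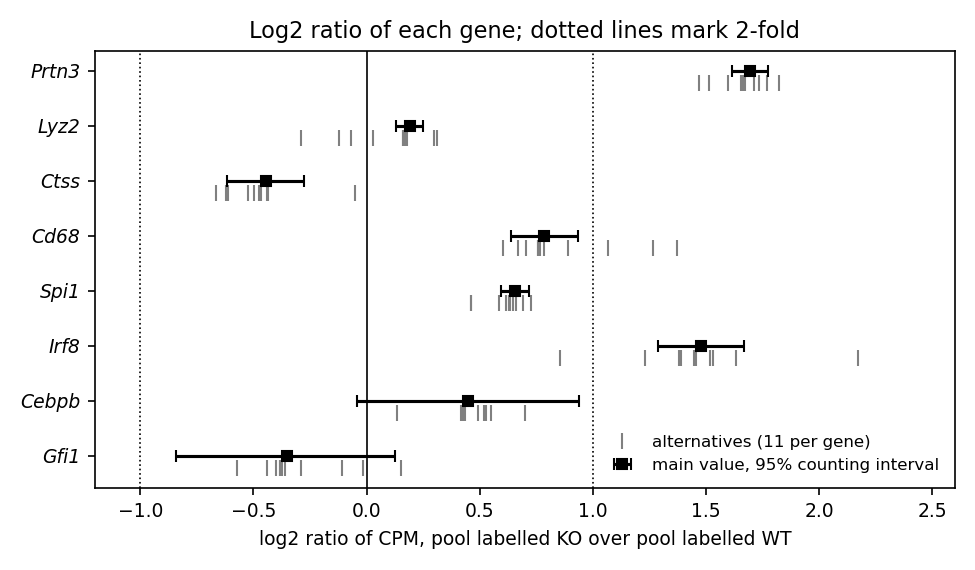
Log2 ratio of CPM, KO-labelled pool over WT-labelled pool, for each gene (black squares, exact 95% counting interval), with the values under 11 alternatives as grey ticks below and dotted lines at 2-fold. The mean over cells of log2(CPM/100 + 1), on another scale, is not plotted (0.84 for Prtn3, 0.21 for Irf8). Prtn3 stays above 2-fold in every alternative plotted, Irf8 spans 0.86 to 2.17, and the ticks of Lyz2 lie on both sides of 0.

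**Figure D4:**
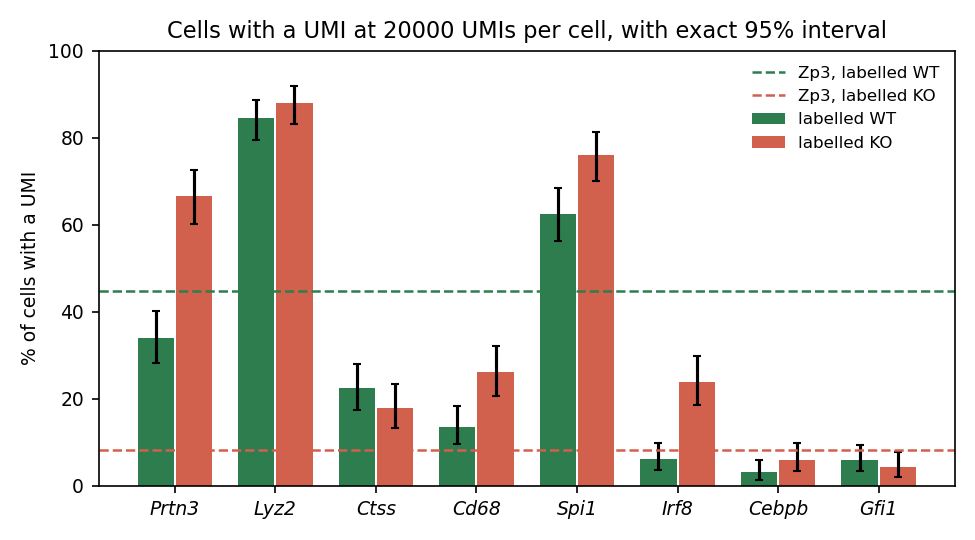
Share of cells (%) with at least 1 UMI of each gene after thinning to 20000 UMIs, with exact 95% intervals, for 259 WT-labelled cells (green) and 234 labelled KO (coral). The dashed lines give the share of the oocyte gene Zp3 in each label, 44.8% and 8.12%, and only Lyz2 and Spi1 exceed it in both labels.

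The number of members found in a single cell draws on the same shares of cells given above, so it is not a separate result. At equal depth a WT-labelled cell held a median of 2 of the 8 members (0 to 5), and a KO-labelled cell a median of 3 (0 to 6). Apart from Lyz2 and Spi1, none of the other 6 was found in 101 WT-labelled (39.0%) and 34 KO-labelled cells (14.5%). At least 3 of those 6 were found in 11 cells (4.25%) and 28 of the 234 cells, in the same order.

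The members varied largely apart from each other within a label. Across the 28 pairs, Pearson's r of log2(thinned UMI + 1) ran from -0.11 to 0.21 over the 259 WT-labelled cells (median -0.03) and from -0.18 to 0.21 over the 234 KO-labelled cells (median 0.02), and all were under 0.3. Such values in sparse counts from shared libraries are a description and no finding. Among KO-labelled cells, Irf8 had a UMI in 21.8% of the 156 cells with Prtn3 (15.6 to 29.1) and 28.2% of the 78 without (18.6 to 39.5). Cd68 was found in 28.8% and 20.5% of the same cells, and Spi1 in 77.6% and 73.1%. These intervals overlap for every one of the 3 genes.

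A search over the 9325 genes whose mean reached 0.5 UMI in the kept cells looked for those most like each of the 6 members that reached that mean. Lyz1 was the only gene with r of at least 0.3 in both labels, with Lyz2, at 0.49 over 259 WT-labelled cells and 0.57 over 234 KO-labelled cells. The shared stretches of the 2 transcripts bear on this value, and their part in it was not tested.

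**Figure D5:**
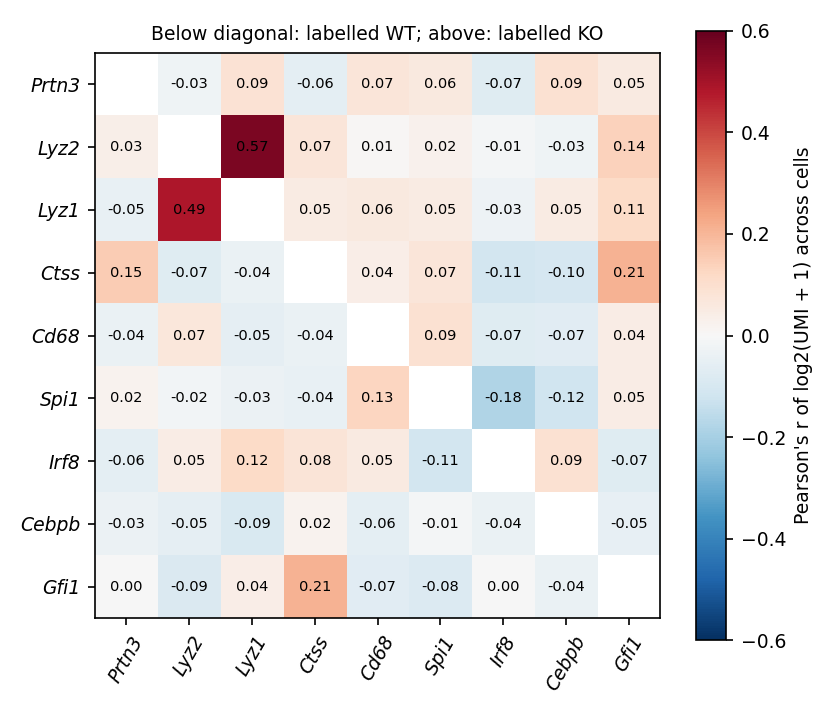
Pearson's r of log2(UMI + 1) across single cells at 20000 UMIs for each pair of the 8 genes and Lyz1, with WT-labelled cells below the diagonal and KO above. The pair of Lyz2 and Lyz1 stands out at 0.49 and 0.57, while no other pair exceeds 0.21.

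Tyrobp, an ITAM adapter of myeloid receptors, and Itgam, the CD11b integrin chain, crossed these genes as follows. Among KO-labelled cells at equal depth, Prtn3 was found in 57.1% (47.1 to 66.8) of the 105 cells with Tyrobp and in 74.4% (66.0 to 81.7) of the 129 without. Among WT-labelled cells the shares lay the other way, 40.9% (26.3 to 56.8) of the 44 cells with Tyrobp and 32.6% (26.3 to 39.3) of the 215 without. The intervals overlap in both labels, and cells are not replicates, so no relation of Prtn3 to Tyrobp was shown. In KO-labelled cells Prtn3 was found in 73.2% of the 41 cells with Itgam and 65.3% of the 193 without, and in WT-labelled cells in 3 of the 7 with Itgam and 33.7% of the 252 without.

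Other genes of the granule and macrophage programs were read from lists, described by counts. Of 31 granule and phagocyte oxidase genes 15 had a row, of which 10 were higher and 5 lower in the KO-labelled pool, with a median log2 ratio of 0.29. Ncf1, a subunit of the phagocyte NADPH oxidase, was past 2-fold higher (log2 ratio 1.504, 1.24 to 1.78). S100a8, a calcium-binding protein of neutrophils, was past 2-fold lower (-1.09, -1.39 to -0.81). Its UMIs lay in few cells: 1 WT-labelled cell held 115 of 377 (30.5%) and 1 KO-labelled cell 89 of 133 (66.9%). At equal depth 20 WT-labelled and 10 KO-labelled cells had a UMI of S100a8. Over all genes 51.9% were higher, 6.98% past 2-fold higher and 7.94% past 2-fold lower. The 1 call each way among the 15 genes is near these shares. Of 34 myeloid transcription factors beyond the members 27 had a row, 19 higher and 8 lower, with a median of 0.46. Past 2-fold higher were 5 of the 27, namely Fos (1.65), Cebpd (1.46), Jun (1.41), Junb (1.08) and Ikzf1 (1.04), against 6.98% of all genes. Past 2-fold lower was 1, Egr1 (-1.39), against 7.94% of all genes. Fos, Jun and Junb are AP-1 factors and Egr1 an immediate early factor, so these genes are not particular to myeloid cells.

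Of 20 lysosomal genes of macrophages 18 had a row, 11 higher and 7 lower, with a median of 0.06. None was past 2-fold higher, against 6.98% of all genes. Past 2-fold lower were 2 of the 18, the proteases Ctsl (-1.08) and Lgmn (-1.59), against 7.94% of all genes. Of 18 cytokine and innate receptor genes 15 had a row, 13 higher and 2 lower, with a median of 0.96. Past 2-fold were 7 higher, of which the largest were Itgam (3.67), Tlr4 (2.70), Tyrobp (1.65), Il3ra (1.44) and Csf2rb (1.27), and 1 lower, Il6ra (-1.65). Of all genes, 6.98% were past 2-fold higher, 7.94% past 2-fold lower and 14.9% past it in either direction, and 51.9% were higher by any amount.

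Markers of other cell types were read beside these values. Of 12 neutrophil markers 3 had a row (S100a8, S100a9 and Cxcr2), and their sum was 97.3 CPM in the WT-labelled pool and 48.6 CPM in the KO-labelled pool, lower where Prtn3 was higher. Of 13 monocyte and macrophage markers 2 had a row (C1qa and Ms4a6c), with sums of 46.5 and 70.8 CPM. Of 11 dendritic cell markers 6 had a row, with sums of 865 and 1057 CPM, and of 10 mast cell and basophil markers 1, Cpa3, at 9.22 and 21.3 CPM. The part of such cells in the values of Prtn3, Irf8 and Cd68 was not tested, and the other defining markers of these types were not analysed here. Fewer cells of a type and less RNA per cell cannot be told apart in the pooled sums.

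The remaining lists differed as follows. Of 12 erythroid markers 6 had a row, summing to 1560 and 1187 CPM. Of these, 1 was higher in the KO-labelled pool (Car1, log2 ratio 8.77) and 5 were lower. All 11 megakaryocyte markers had a row, at 1107 and 1206 CPM, with 6 higher and 5 lower (log2 ratios -4.47 to 2.08). Of 11 B cell markers 1 had a row, at 55.4 and 86.3 CPM. Of 12 T and NK cell markers 3 had a row, at 299.3 and 313.4 CPM, with 2 higher and 1 lower. Of 11 stromal and endothelial markers 6 had a row, at 81.8 and 102.3 CPM. The sum was higher in the KO-labelled pool although 4 of them were lower and 2 higher (median log2 ratio -1.84). Of 27 oocyte genes 24 had a row, at 2311 and 119 CPM, all lower. All 13 genes of stem cell sorting and identity had a row, at 1337 and 1310 CPM, with 6 higher and 7 lower. Their log2 ratios ran from -2.26 (Slamf1) to 1.14 (Mecom), so near-equal sums do not mean unchanged genes.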

How the data were processed

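Single-cell 3′ UMI sequencing of sorted mouse HSCs gave 1 table of 10720 genes and 586 cells (304 labelled WT, 282 labelled KO). The authors aligned reads to the mm9 transcriptome, removed UMI duplicates, filtered cells and genes and normalized the counts. They deposited log2 values of the normalized UMI count plus 1; the aligner and normalization method are not given in the sources used here. Genes of low mean count are absent from the table, so UMIs per cell are those of the listed genes.

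After undoing the log2, each cell's values were divided by its smallest value above 0, which gave whole UMIs (100% of values within 0.01). Cells with fewer than 2000 genes or 20000 UMIs were left out (93 cells), and doublets were not sought, as cells had been picked by hand. UMIs were summed per label and expressed as CPM, with a pooled ratio and exact Clopper-Pearson or Poisson 95% intervals. Intervals of a difference in shares combine both exact intervals (method of squared margins). Shares, likeness and pairs used cells thinned to 20000 UMIs (seed 1). The column names give no library, so each label was 1 pool and no p-value was computed. The members and lists were chosen with earlier results of these data known. Named are all members, Med23, list genes past 2-fold (at most 5 each way per list), and genes with r of at least 0.3 in both labels; Zp3, the sorting markers and cell type markers with a row are named beside results. Alternatives covered cell filters, thinning, depth, 3 scalings, cell weights, top cells and oocyte-rich cells. The steps were tested on simulated data. Python 3.11.15, numpy 2.4.6, scipy 1.17.1, pandas 2.3.3 and matplotlib 3.10.9 were used.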

Additional observations from a re-analysis of the deposited data

How the results depend on the processing

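No paired analysis was possible because the column names carry no library or replicate number; leaving out each library was not run for the same reason. The cause of the differences below was not tested. The log2 ratio of Lyz2 (0.19) reversed to -0.067 in cells thinned to 20000 UMIs, to -0.29 in cells under 50000 UMIs and to -0.12 with the authors' normalized values. The summed granule enzymes (0.77) moved to 0.88 with at least 3000 genes and 30000 UMIs, 0.57 after thinning, 0.38 under 50000 UMIs, 0.87 at or over 50000 UMIs, 0.49 with the authors' normalized values, 0.51 as a mean over cells of log2(CPM/100 + 1) and 0.65 without oocyte-rich cells. The lysosomal members (0.24) moved to 0.64 under 50000 UMIs, 0.13 at or over it, 0.13 as a mean over cells and 0.067 without oocyte-rich cells. The transcription factors (0.72) moved to 0.78 with the stricter minimum, 0.66 after thinning, 0.49 under 50000 UMIs, 0.53 with the authors' values and 0.48 as a mean over cells. The member median (0.55) moved to 0.31 under 50000 UMIs and to 0.11 as a mean over cells. Of the other values for these summaries 37 stayed within the counting interval of the reported value, or within 1.5 times of it for counts. The Gfi1 log2 ratio (-0.35) was 0.15 in cells under 50000 UMIs, above its counting interval and of the other sign. The 3 scalings shifted every log2 ratio by -0.03, -0.02 and -0.03. Depth limits Gfi1 and Cebpb, which have 159 and 144 UMIs over all kept cells.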

Other observations

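The 93 cells below the minimum of genes or UMIs (45 labelled WT, 48 labelled KO) entered no comparison. In them Prtn3 gave 49 UMIs in WT-labelled cells and 243 in KO-labelled cells, or 72.1 and 324.3 CPM. Irf8 gave 4 and 47 UMIs, or 5.88 and 62.7 CPM. Lyz2 gave 343 and 278 UMIs, or 504.6 and 371 CPM, and Spi1 gave 135 and 200 UMIs, or 198.6 and 266.9 CPM. Cd68 gave 19 and 36 UMIs, and Ctss 11 and 16. Gfi1 gave 7 and 3 UMIs and Cebpb 5 and 5, too few to compare.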
